A study of Homo sapiens with 12 samples.

Results

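The genes described here are the SR proteins and hnRNPs, the main families of RNA-binding splicing regulators, and they were chosen by symbol alone: every row of the deposited count table whose symbol begins with SRSF and a digit, or with HNRNP. This gave 34 of 17197 symbols, 12 SRSF and 22 HNRNP genes. In the cell, SR proteins carry serine and arginine repeats, bind exonic enhancers and recruit the spliceosome, and kinases of the SRPK and CLK families phosphorylate them. HnRNPs coat the nascent transcript and often act against SR proteins by silencing exons, and members of both families also serve in mRNA export, stability and translation. Many of these genes keep their own level in check through alternatively spliced exons that expose their transcripts to nonsense-mediated decay, a route that a table of counts per gene cannot resolve.

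Transcripts were measured by RNA sequencing in AC16, an established human line made by fusing adult ventricular heart cells with transformed fibroblasts. The design crossed an siRNA against EP300, a lysine acetyltransferase and transcriptional coactivator, with hydrogen peroxide (H2O2), an oxidant. Each of the 4 groups held 3 libraries: siEP300 (EP300 siRNA, libraries 4 to 6), siNC (negative control siRNA, 1 to 3), siEP300.H2O2 (EP300 siRNA then H2O2, 10 to 12) and siNC.H2O2 (control siRNA then H2O2, 7 to 9). All cells were transfected in medium lacking serum, H2O2 was applied for 1 h beginning 12 h after transfection at a labelled 200 mM, whose unit is uncertain, and RNA was taken after 48 h. A treatment field names MLF1 in place of EP300 for the 6 libraries titled siEP300, and the groups follow the titles. Nothing in the labels tells whether a group's 3 libraries stem from separate cultures; the p-values therefore reflect the spread among these samples alone, and that spread may be technical.

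EP300 was at 36.3, 36.8 and 36.7 CPM in siEP300, against 101, 69.1 and 80.1 CPM in siNC, and at 30.1, 26.9 and 26.5 CPM in siEP300.H2O2, against 59.9, 80.4 and 89.9 CPM in siNC.H2O2, where CPM is the count scaled to a common library total after TMM and values follow the library numbers. It fell, with log2 changes of -1.19 and -1.46 (edgeR adjusted p = 3.6e-06 and 5.9e-07), and CREBBP, its closest relative, rose by 0.48 ± 0.09 and 0.50 ± 0.09 (adjusted p = 2.4e-04 and 1.9e-04). MLF1 stood at 86.1% and 82.0% of its control level in the same comparisons. Library totals ran from 16081437 to 19033679 estimated counts. Of 20 cardiomyocyte markers 17 were in the table and 13, including TNNT2, MYH6, MYH7 and MYL2, averaged under 1 CPM in every group. Libraries differed within groups along a leading axis that took 55.0% of that variation. The farthest out were siNC 1 (12.5) and siNC.H2O2 7 (-10.8), with siEP300.H2O2 10 (9.66), siNC.H2O2 9 (9.30) and siNC 2 (-8.64) not far behind, while the siEP300 libraries lay between -1.35 and 0.86. Among the 33 SR and hnRNP genes tested, siNC 1 lay above both other siNC libraries for 10 and below both for 17 (30.3% and 51.5%, against 40.2% and 41.0% of all genes). The library siNC.H2O2 7 lay above both others of its group for 18 and below both for 7 (54.5% and 21.2%, against 39.0% and 39.3% of all genes). Calls on these genes are also given without siNC 1 and siNC.H2O2 7 together, a pair picked from earlier work on these data, and each library was left out in turn.

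The SR and hnRNP genes were abundant and tight between libraries. Together they held 1.19% to 1.23% of all counts in siEP300, against 1.28% to 1.31% in siNC, and 1.19% in each siEP300.H2O2 library, against 1.22% to 1.28% in siNC.H2O2. Their median coefficient of variation over the 3 libraries of a group was 2.96% in siEP300, 4.56% in siNC, 3.21% in siEP300.H2O2 and 4.52% in siNC.H2O2, where genes of at least 5 CPM had medians of 3.82%, 6.77%, 5.84% and 7.31%. The set of at least 5 CPM was not matched to the members in abundance. The lower medians therefore do not show that the members were unusually tight. HNRNPCL4, an hnRNP C-like gene, had 0 or 1 count in every library, failed the filter on low counts and was not tested. The other 33 were tested with the quasi-likelihood test of edgeR, and a call means an adjusted p under 0.05 (Benjamini-Hochberg, over all 13171 genes tested).

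In FPKM, the deposited value per gene length, the order of the most abundant members differed between the siRNAs. HNRNPA1 led with 525, 538 and 482 FPKM in siEP300, where HNRNPA2B1 had 380.3, 408 and 380.2 FPKM, and with 491, 503 and 484 FPKM in siEP300.H2O2, where HNRNPA2B1 had 385, 387 and 397. In siNC, HNRNPA2B1 led with 549.9, 538 and 545 FPKM over HNRNPA1 with 372, 421 and 409, and in siNC.H2O2 with 579, 635 and 563 over 423, 443 and 391. HNRNPK, which binds C-rich RNA, came next in each group, at 327 ± 3.39 FPKM in siEP300, 356 ± 17.5 in siNC, 334 ± 13.7 in siEP300.H2O2 and 362 ± 10.8 in siNC.H2O2 (mean ± SD, n = 3). HNRNPC, HNRNPH1, SRSF5 and SRSF9 lay between 240.3 and 306 FPKM as group means. In siNC, HNRNPC (296 ± 12.7 FPKM) and SRSF9 (287 ± 23.0) were within 1 SD of each other, as were SRSF9 and HNRNPH1 (282 ± 7.98). At the low end stood HNRNPLL, HNRNPA0, HNRNPA1L2 and SRSF8, and below them SRSF12 at 0.03 to 0.373 FPKM as group means. The abundant SR proteins SRSF5, SRSF9, SRSF2 and SRSF7 all lay above SRSF1, the best-studied family member, which had 65.3 ± 0.683 FPKM in siEP300 and 65.9 ± 2.71 in siNC.

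Without H2O2, the question was which of these genes EP300 siRNA changed. Of the 33 genes, 5 were higher and 11 lower in siEP300 than in siNC, so 16 were called (48.5%), against 61.5% of all genes tested, 30.1% higher and 31.4% lower. Among the falls, SRSF12 passed the filter on low counts only through the control groups and so had to differ; without it the count was 5 higher and 10 lower of 32. HNRNPUL2 fell by 1.09 on the log2 scale, the largest change of a member above 1 FPKM, the A/B-type hnRNPs HNRNPA2B1 and HNRNPA3 fell while HNRNPA1 and HNRNPAB rose, and among SR proteins SRSF2, SRSF6, SRSF7, SRSF9 and SRSF12 fell and SRSF5 rose. Most changes were small: 11 of the 16 were under 0.3 on the log2 scale in size. The median size of the log2 change was 0.14 for the 33 genes and 0.32 for all genes tested, and the median change was -0.06 and -0.0042. With upper quartile scaling the split was 3 higher and 15 lower, where all genes tested split into 3410 higher and 4647 lower of 13171. Without siNC 1 and siNC.H2O2 7 the members' split was 6 higher and 13 lower (65.1% of all genes were called in that fit). HNRNPL and SRSF3 were then added among the falls and SRSF10 among the rises. HNRNPUL2, HNRNPA2B1, HNRNPA3, HNRNPF, HNRNPA1, HNRNPAB, HNRNPR, HNRNPU and SRSF2 were called in all 20 alternative analyses.

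The same question was put to cells given H2O2. Of the 33 genes, 2 were higher and 8 lower in siEP300.H2O2 than in siNC.H2O2, 10 in all, against 59.0% of all genes tested, 28.4% higher and 30.6% lower. Without SRSF12, the count was 2 higher and 7 lower of 32. With siNC 1 and siNC.H2O2 7 left out the split was 5 higher and 7 lower of all 33 (59.6% of all genes called), with HNRNPDL, HNRNPM and SRSF5 added among the rises and HNRNPD lost. The median size of the log2 change was 0.11, against 0.30 for all genes. HNRNPA1, HNRNPA2B1, HNRNPA3, HNRNPAB, HNRNPD, HNRNPF, HNRNPR and HNRNPUL2 were called in both siRNA comparisons, each in the same direction in both, as was SRSF12 under the limit above. HNRNPH2 was called with H2O2 only, and HNRNPH3, HNRNPU, SRSF2, SRSF5, SRSF6, SRSF7 and SRSF9 without H2O2 only. Across the 33 genes, the log2 changes of these comparisons, which share no library, had a Pearson correlation of 0.97, and of 0.84 over the 31 genes other than SRSF12 and HNRNPUL2. The genes are not independent replicates, and both sets of values came from 1 fit.

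**Figure D1:**
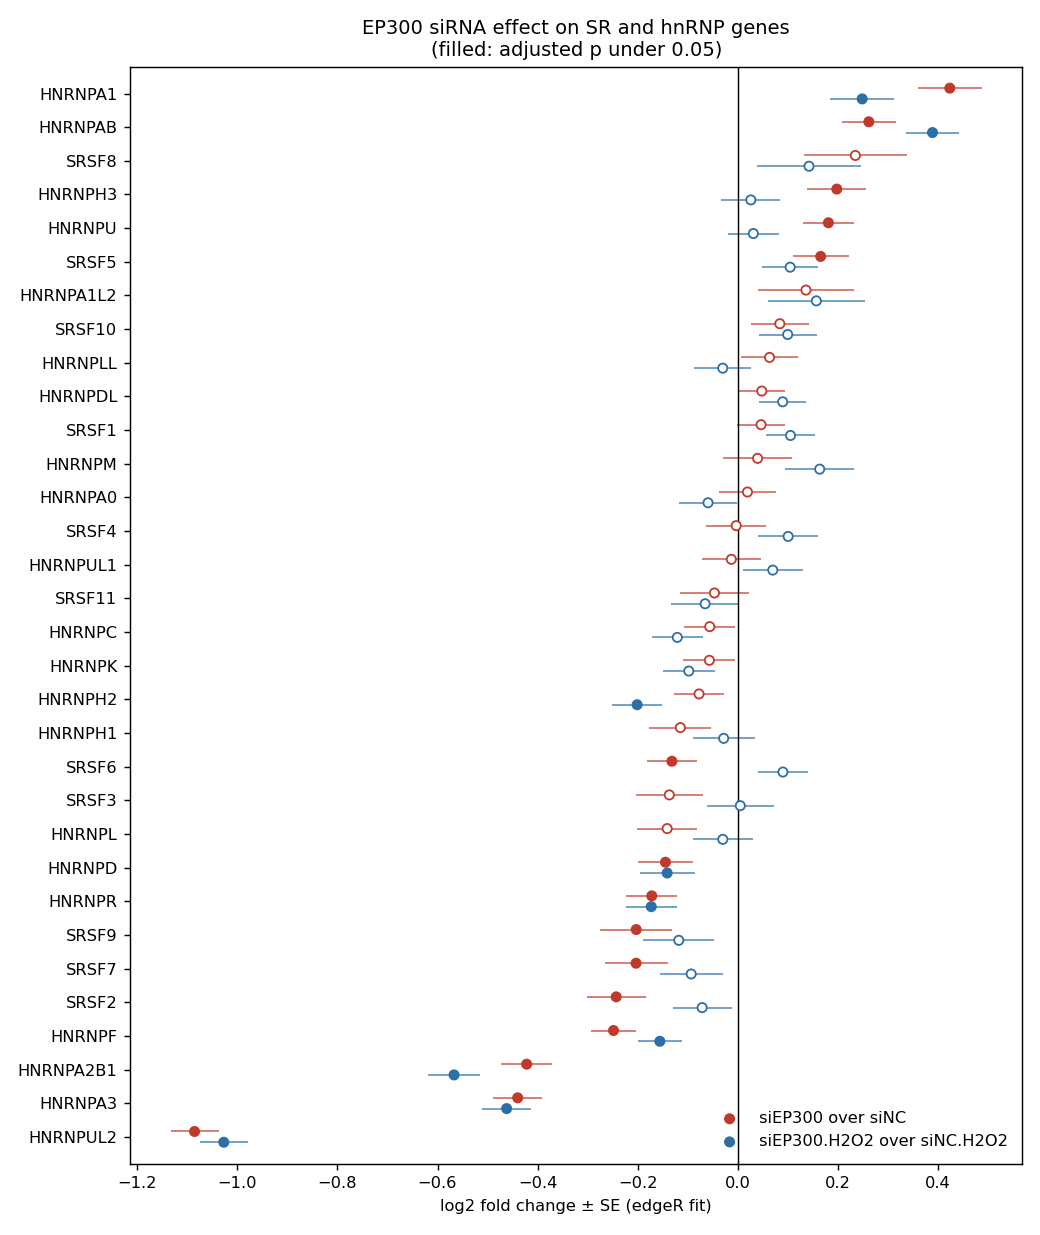
Log2 fold change ± SE of each SR and hnRNP gene with EP300 siRNA (x axis, edgeR fit; 1 row per gene), without H2O2 in red and with H2O2 in blue; filled points had an adjusted p under 0.05. HNRNPUL2 sits near -1.09 and -1.03, apart from the others, which lie between -0.57 and 0.42; SRSF12, at -3.24 and -2.33, is off the scale and HNRNPCL4 was not tested.

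HNRNPUL2 lies at chr11:62712630-62727472 on the minus strand of GRCh38 (GENCODE 29) and encodes a relative of the scaffold attachment factor HNRNPU that takes part in the handling of DNA double-strand breaks. It was at 172, 175 and 168 CPM in siEP300, against 363, 358 and 373 CPM in siNC. With H2O2 it was at 200.1, 199 and 201 CPM in siEP300.H2O2, against 427, 400.2 and 395 CPM in siNC.H2O2. No library with EP300 siRNA came near any control library, and the libraries of each siRNA kept to a narrow band. On the log2 scale the changes came to -1.09 ± 0.05 and -1.03 ± 0.05 (± SE; edgeR adjusted p = 1.8e-10 and 2.7e-10), which left 47.1% and 49.1% of the control level. Its relatives did not fall. HNRNPU, which anchors RNA to the nuclear scaffold, was at 853, 916 and 873 CPM in siEP300, against 803, 734 and 792 in siNC, and rose by 0.18 ± 0.05 (edgeR adjusted p = 0.0065). HNRNPUL1, with log2 changes of -0.01 ± 0.06 and 0.07 ± 0.06, was not called in either comparison. Annotated exons of HNRNPUL2 share 44.1% of their bases with a readthrough gene on the same strand, HNRNPUL2-BSCL2, which has no row in the count table. HNRNPU shares 15.6% of its exonic bases with COX20 on the opposite strand, which rose by 0.75 ± 0.06 in siEP300 against siNC, and since the strand setting of the counting is not given, reads of these 2 genes cannot be told apart there.

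The A/B-type hnRNPs, paired RNA-recognition-motif proteins that coat nascent transcripts, moved in opposite directions. HNRNPA2B1, which sorts and packages RNA and binds methylated adenosines, was at 858, 885 and 844 CPM in siEP300, against 1127, 1189.7 and 1149 in siNC. With H2O2 it was at 848, 876 and 904 CPM in siEP300.H2O2, against 1328, 1335 and 1230.1 in siNC.H2O2. Both sets were separate, and it fell, with log2 changes ± SE of -0.42 ± 0.05 and -0.57 ± 0.05 (edgeR adjusted p = 5.3e-06 and 2.7e-07). HNRNPA3, a further family member known for RNA transport, was at 445, 455 and 445 CPM in siEP300, against 610.0, 601 and 614 in siNC. With H2O2 it was at 474, 455 and 483 CPM in siEP300.H2O2, against 648, 679.6 and 617 in siNC.H2O2. It fell by a similar amount in each, by 0.44 and 0.46 on the log2 scale (edgeR adjusted p = 2.4e-06 and 1.5e-06), again with no overlap.

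HNRNPA1, an exon silencer that also steers the choice of 5′ splice sites, was at 1745, 1775 and 1599 CPM in siEP300, against 1175, 1342 and 1299 in siNC. With H2O2 it was at 1646, 1707 and 1657 CPM in siEP300.H2O2, against 1434, 1474 and 1307 in siNC.H2O2. All 6 libraries with EP300 siRNA lay above all 6 with control siRNA, and it rose by 0.42 ± 0.06 and 0.25 ± 0.06 in log2 units (edgeR adjusted p = 4.4e-05 and 0.0037). HNRNPAB, a transcript- and promoter-binding relative, was at 346, 356 and 344 CPM in siEP300, against 273, 294 and 305 in siNC, and at 347, 362 and 367 CPM in siEP300.H2O2, against 273, 285 and 264 in siNC.H2O2. It too rose without overlap between siRNAs, by 0.26 ± 0.05 and 0.39 ± 0.05 (edgeR adjusted p = 6.2e-04 and 1.9e-05). The ratio of HNRNPA1 to HNRNPA2B1 within a library, in FPKM, was 1.27 to 1.38 in siEP300, against 0.677 to 0.783 in siNC, and 1.22 to 1.30 in siEP300.H2O2, against 0.695 to 0.731 in siNC.H2O2. As a ratio of counts it was 1.90 to 2.03 in siEP300, against 1.04 to 1.13 in siNC. With H2O2 the count ratio was 1.83 to 1.95 in siEP300.H2O2, against 1.06 to 1.10 in siNC.H2O2. Which gene led with control siRNA therefore depended on the scaling to gene length. HNRNPA0, which binds AU-rich messages, and HNRNPA1L2, an intronless copy of HNRNPA1, were not called in either siRNA comparison. Counts of HNRNPA1 and HNRNPA1L2 were fractional in all 12 libraries, as happens where reads match more than 1 gene, so how reads were shared between near-identical copies is uncertain for both.

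**Figure D2:**
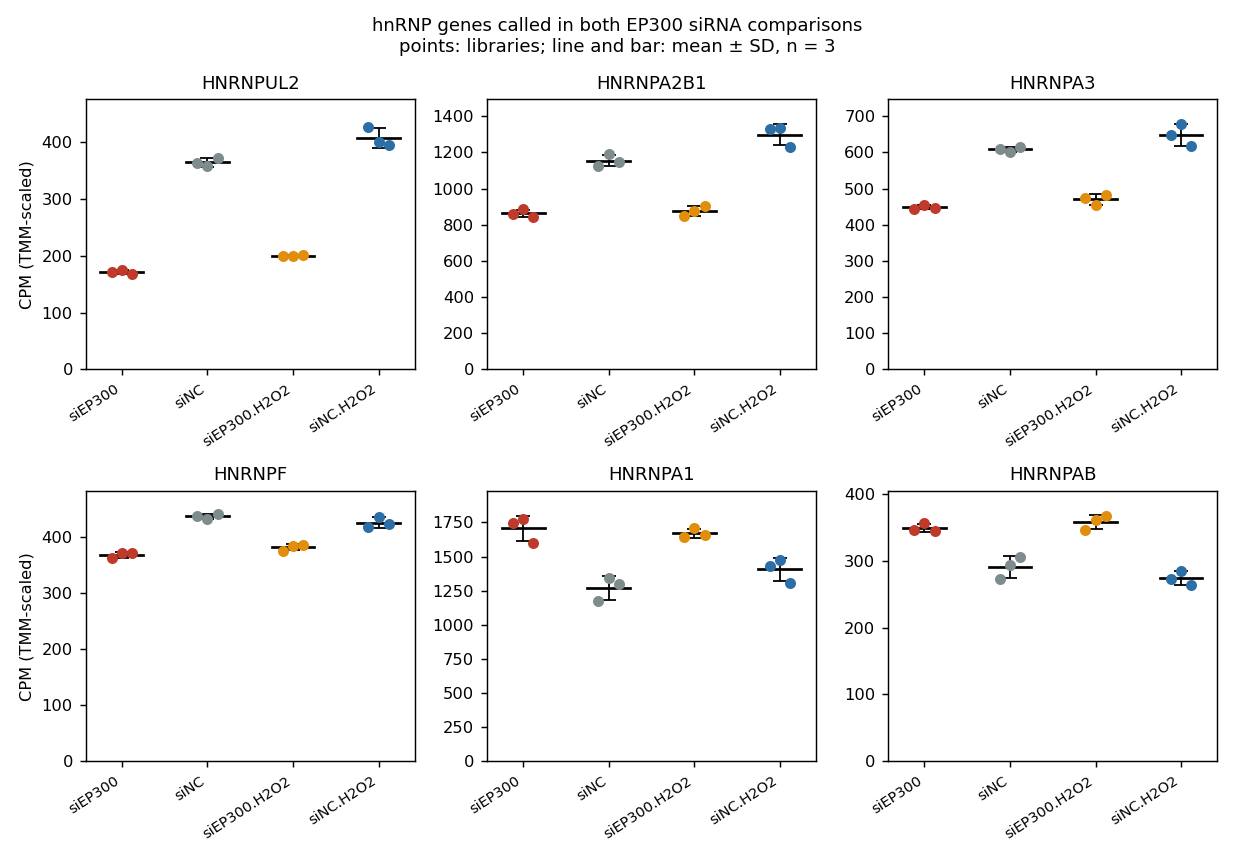
Level in CPM (y axis from 0, counts per TMM-scaled total) of 6 hnRNP genes in the 4 groups; points are libraries, lines and bars the mean ± SD (n = 3). In each panel the libraries with EP300 siRNA and those with control siRNA do not overlap, lower for HNRNPUL2, HNRNPA2B1, HNRNPA3 and HNRNPF and higher for HNRNPA1 and HNRNPAB.

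The other hnRNPs changed less. HNRNPF and its close relatives bind runs of G near splice sites, and HNRNPF fell in both comparisons, to 368 ± 4.69 CPM in siEP300, against 438 ± 4.82 in siNC, and to 382 ± 5.60 CPM in siEP300.H2O2, against 426 ± 9.83 in siNC.H2O2 (SD, n = 3; edgeR adjusted p = 2.0e-04 and 0.0072). HNRNPH3 was at 316, 337 and 316 CPM in siEP300, against 266, 294 and 284 in siNC, a rise of 0.20 ± 0.06 on the log2 scale (edgeR adjusted p = 0.0091) that was not called with upper quartile scaling or with FPKM. HNRNPH2 was at 183, 171 and 172 CPM in siEP300.H2O2, against 200.0, 211 and 195 in siNC.H2O2, and fell by 0.20 on the log2 scale (edgeR adjusted p = 0.0029); its counts were fractional in 11 libraries, and 16.3% of its exonic bases belong also to the readthrough gene RPL36A-HNRNPH2. HNRNPH1 was not called, at -0.11 ± 0.06 and -0.03 ± 0.06. HNRNPR, which shares its build with SYNCRIP and binds mRNA in transport, fell to 344 ± 8.11 CPM in siEP300, against 387 ± 15.9 in siNC, and to 355 ± 14.4 CPM in siEP300.H2O2, against 399.6 ± 10.8 in siNC.H2O2. The second of these calls (edgeR adjusted p = 0.0094) ended without siEP300.H2O2 11 (adjusted p = 0.060). HNRNPD, which targets AU-rich messages for decay, fell by 0.14 and 0.14 on the log2 scale (edgeR adjusted p = 0.034 and 0.039). Its first call ended when any of siNC 2, siNC 3, siEP300 4, siEP300 6 or siNC.H2O2 8 was left out (adjusted p between 0.051 and 0.13). Its second ended without any of 9 libraries, siNC 3, siEP300 4, 5 and 6, siNC.H2O2 7 and 8 and siEP300.H2O2 10, 11 and 12 (between 0.050 and 0.15), and also without siNC 1 and siNC.H2O2 7 together (adjusted p = 0.098). HNRNPC, HNRNPDL, HNRNPK, HNRNPL, HNRNPLL and HNRNPM, binders of U-tracts, AU-rich elements, C-rich runs, CA repeats (both L proteins) and GU-rich RNA, were called in none of the comparisons, and HNRNPL came closest without H2O2, at -0.14 ± 0.06 (edgeR adjusted p = 0.051).

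Of the SR proteins, SRSF2, an exon-enhancer binder mutated in some leukaemias, was at 255, 268 and 265 CPM in siEP300, against 288, 328 and 317 CPM in siNC. The groups did not overlap, and it fell by 0.24 ± 0.06 on the log2 scale (edgeR adjusted p = 0.0023). With H2O2 it was at 229 ± 10.1 CPM in siEP300.H2O2 and 241 ± 10.1 CPM in siNC.H2O2, with overlap and no call. SRSF2 shares 36.7% of its exonic bases with MFSD11 on the opposite strand, which had a log2 change of 0.07 ± 0.06 in siEP300 against siNC and was not called. In siEP300.H2O2 against siNC.H2O2 MFSD11 fell by 0.24 (edgeR adjusted p = 0.0059). SRSF2 counts were fractional in all 12 libraries. SRSF7, which couples splicing to export, SRSF9 and SRSF6 fell by 0.20, 0.20 and 0.13 on the log2 scale (edgeR adjusted p = 0.011, 0.023 and 0.033), and SRSF5 rose by 0.17 (adjusted p = 0.018). SRSF9 shares 46.2% of its exonic bases with GATC on the opposite strand, which rose by 0.21 ± 0.05 in the same comparison. None of these 4 was called between the H2O2-treated groups, where the log2 change was -0.09 for SRSF7, -0.12 for SRSF9, 0.09 for SRSF6 and 0.11 for SRSF5. These small changes depended on single libraries: the SRSF7 call ended without siNC 2 (adjusted p = 0.057), and that of SRSF5 without siNC 1 or siEP300 5 (0.065 and 0.075). The SRSF9 call ended without siNC 2, siNC 3, siEP300 4 or siEP300 6 (0.063 to 0.11), and that of SRSF6 without any siNC or siEP300 library or siEP300.H2O2 11 (0.050 to 0.17). SRSF1, SRSF3, SRSF4, SRSF8, SRSF10 and SRSF11 were not called in either siRNA comparison.

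SRSF12, an SR-related protein known to oppose other SR proteins, was nearly absent. Its counts were 0, 2 and 3 in siEP300, against 19, 19 and 15 in siNC, and 6, 3 and 4 in siEP300.H2O2, against 25, 19 and 22 in siNC.H2O2. Every library with EP300 siRNA lay below every control library. Summed per group and set against library totals, the ratio was 0.099 without H2O2 (5 against 53 counts, 95% exact interval 0.031 to 0.25) and 0.19 with it (13 against 66 counts, 0.098 to 0.35), intervals that cover counting error only. The edgeR test called it lower in both (adjusted p = 2.5e-05 and 5.4e-05), but it passed the filter on low counts only through the control groups. That call, the separation of the libraries and the ratios with their intervals therefore do not count as support.

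Sequence before the start site is shown for the genes that moved most clearly in each direction and have windows with little annotated exon in them, HNRNPUL2, which fell, and HNRNPAB, which rose (HNRNPA1 had no window). Each is the 250 bases before the RefSeq start on GRCh38.p14, written 5′ to 3′ on the strand of the gene, HNRNPUL2 from chr11:62727458-62727707 (minus strand) and HNRNPAB from chr5:178204283-178204532 (plus strand). Capitals mark matches, on either strand, to 6 motifs: the GC box with letters GGGCGG, the CCAAT box spelled as named, the cyclic AMP response element with letters TGACGTCA, whose factor CREB recruits EP300, the ETS core with letters CCGGAAG, the E-box with letters CACGTG and the TATA box with letters TATAAA.
HNRNPUL2: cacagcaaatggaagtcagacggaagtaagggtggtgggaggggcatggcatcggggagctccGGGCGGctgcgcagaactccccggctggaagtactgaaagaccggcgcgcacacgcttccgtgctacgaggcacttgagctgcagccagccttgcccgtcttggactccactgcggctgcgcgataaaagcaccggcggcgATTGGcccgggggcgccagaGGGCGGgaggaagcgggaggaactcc
HNRNPAB: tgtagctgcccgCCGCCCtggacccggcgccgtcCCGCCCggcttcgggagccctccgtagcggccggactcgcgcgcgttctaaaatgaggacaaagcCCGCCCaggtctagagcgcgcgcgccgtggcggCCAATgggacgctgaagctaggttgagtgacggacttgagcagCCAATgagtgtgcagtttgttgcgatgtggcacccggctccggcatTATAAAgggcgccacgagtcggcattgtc
The HNRNPUL2 window holds GC boxes beginning 187 and 26 bases before the start and a reversed CCAAT box at 46, with a GC content of 66.4%. The HNRNPAB window holds reversed GC boxes at 238, 216 and 151 bases, CCAAT boxes at 118 and 75 and a TATA box at 29, with a GC content of 66.0%. RefSeq windows were found for 32 of the 34 genes, 46 in all, and HNRNPA1 and SRSF2 were without one. A GC box was in 27 of the 46, against 42.6% of 35116 windows of all genes, and a CCAAT box in 21, against 32.0%. The cyclic AMP element was in 0 of 46 (1.65% of all windows), the ETS core in 5 (8.52%), the E-box in 7 (6.34%) and the TATA box in 6 (10.7%). A match is a match of letters only, and none of these counts was tested.

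Several of these genes start back to back with another protein-coding gene, and the neighbours gave a local point of comparison. CBX5, which encodes a heterochromatin protein, starts 60 bases from HNRNPA1 on the other strand and moved the opposite way. It was at 178, 197 and 173 CPM in siEP300, against 474, 386 and 411 in siNC, and at 185, 144 and 171 CPM in siEP300.H2O2, against 325, 378 and 392 in siNC.H2O2. The log2 change ± SE was -1.22 ± 0.10 and with H2O2 -1.13 ± 0.10 (edgeR adjusted p = 8.0e-08 and 1.8e-07). TTC9C, a tetratricopeptide repeat gene that starts 597 bases from HNRNPUL2, was at 39.0, 37.1 and 34.7 CPM in siEP300, against 23.4, 23.0 and 25.4 in siNC, and at 45.3, 42.6 and 39.0 CPM in siEP300.H2O2, against 32.8, 34.3 and 30.0 in siNC.H2O2. It rose by 0.63 ± 0.08 and 0.39 ± 0.08 where HNRNPUL2 fell (edgeR adjusted p = 6.4e-06 and 4.7e-04). CBX3, a further heterochromatin protein gene that starts inside HNRNPA2B1, was not called, at -0.01 ± 0.07 and -0.08 ± 0.07. Of the 9 such pairs, HNRNPDL with ENOPH1, HNRNPH2 with GLA, HNRNPK with RMI1 and SRSF11 with LRRC40 had a partner that rose in both siRNA comparisons, and SRSF7 with GEMIN6 and SRSF9 with DYNLL1 had a partner called in neither. Of all genes tested, 30.1% were called higher and 31.4% lower without H2O2, and 28.4% higher and 30.6% lower with it. Whether the partners differed from other genes was not tested.

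**Figure D3:**
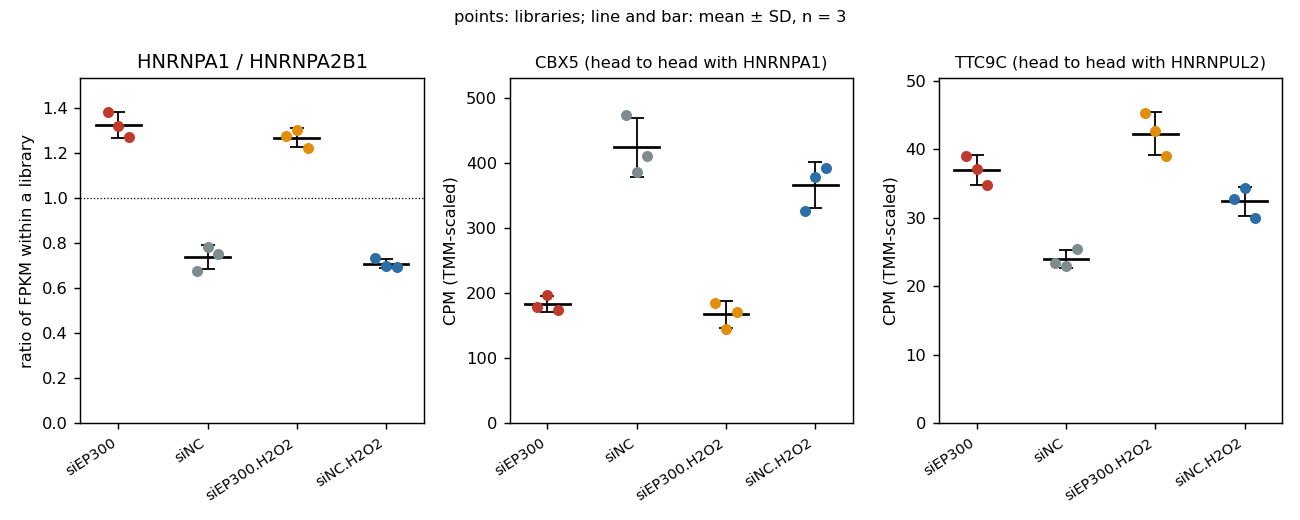
Left, ratio of HNRNPA1 to HNRNPA2B1 within a library (y axis, FPKM over FPKM); middle and right, level in CPM of CBX5 and TTC9C, the genes that start head to head with HNRNPA1 and HNRNPUL2. Points are libraries, lines and bars the mean ± SD (n = 3), and axes start at 0; the ratio is above 1 in all 6 libraries with EP300 siRNA and below 1 in all 6 with control siRNA, CBX5 is lower and TTC9C higher with EP300 siRNA.

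Markers of other cell types were counted in the same siRNA comparisons, where 61.5% of all genes tested were called without H2O2 and 59.0% with it. Of 16 fibroblast and matrix markers, 7 rose and 6 fell without H2O2, and 3 rose and 8 fell with it. Of the same 16, 0 higher and 6 lower had a called interaction, against 3.33% of all genes tested. The sum of the fibroblast and matrix markers was 13747 to 14280 CPM in siEP300, against 11872 to 12532 in siNC. With H2O2 it was 11452 to 11844 CPM in siEP300.H2O2, against 13070 to 14126 in siNC.H2O2. EP300 siRNA thus went with a higher sum in untreated cells and a lower sum in H2O2-treated cells. The median log2 change of the 16 markers was below 0 in both, at -0.09 without H2O2 and -0.28 with it. Of 6 endothelial markers tested, 1 rose and 4 fell without H2O2, and 1 rose and 5 fell with it. The list summed to 20.5 to 22.1 CPM in siEP300, against 37.8 to 45.2 CPM in siNC, and to 16.2 to 17.8 CPM in siEP300.H2O2, against 35.0 to 40.0 CPM in siNC.H2O2. The defining markers PECAM1, CDH5, VWF, ERG and CLDN5 averaged under 1 CPM in every group. Of 6 epithelial markers tested, 0 rose in either comparison and 3 and 4 fell, and the list summed to 327 to 332 CPM in siEP300, against 356 to 398 in siNC, and to 447 to 524 CPM in siEP300.H2O2, against 575 to 627 in siNC.H2O2. The 20 cardiomyocyte markers summed to 53.9 to 55.5 CPM in siEP300, against 64.8 to 66.4 in siNC, and to 53.6 to 61.6 CPM in siEP300.H2O2, against 68.1 to 83.5 in siNC.H2O2. Leukocyte markers summed to 42.5 to 47.0 CPM in siEP300, against 34.7 to 43.6 in siNC. With H2O2 they summed to 68.4 to 81.5 CPM in siEP300.H2O2, against 53.3 to 56.2 in siNC.H2O2. Only 2 of the 8 leukocyte markers were tested, and PTPRC, LYZ, ITGAM and CSF1R averaged under 1 CPM in every group. Among the epithelial markers, CLDN4 and ESRP1 averaged under 1 CPM in every group, and CDH1 in each group but siNC. AC16 is an established line, and these levels do not show that cells of such types were present. The part of these markers in the changes above was not tested. In bulk RNA fewer cells with a marker and less RNA per cell cannot be told apart.

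The third comparison asked what H2O2 changed under control siRNA. Of the 33 genes, 3 were higher and 6 lower in siNC.H2O2 than in siNC, 9 in all, against 35.3% of all genes tested, 17.8% higher and 17.4% lower. All 5 SR proteins called, SRSF2, SRSF3, SRSF4, SRSF6 and SRSF10, fell, as did HNRNPA0, and HNRNPH3, HNRNPA2B1 and HNRNPUL2 rose. The split was 1 higher and 7 lower with upper quartile scaling, where all genes split into 1784 higher and 3071 lower of 13171. Without siNC 1 and siNC.H2O2 7 the members' split was 1 higher and 6 lower (36.9% of all genes called). There SRSF7 joined the falls (-0.17, edgeR adjusted p = 0.021) and SRSF10, HNRNPA2B1 and HNRNPUL2 lost their calls. The median log2 change was -0.09 for the 12 SRSF genes, 0.08 for the 21 HNRNP genes and -0.0081 for all genes. No member changed 2-fold here. With H2O2, 35.3% of all genes tested were called under control siRNA and 31.1% under EP300 siRNA. Of the 16 fibroblast and matrix markers, 6 rose and 5 fell with H2O2 under control siRNA, and 3 rose and 8 fell under EP300 siRNA. Of the 6 epithelial markers tested, 3 rose and 1 fell with H2O2 under control siRNA, and 3 rose and 0 fell under EP300 siRNA, and the part of these markers in the results was not tested.

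SRSF2 was at 250.4, 230.3 and 242 CPM in siNC.H2O2, against 288, 328 and 317 CPM in siNC. The groups were apart, and SRSF2 fell, with a log2 change ± SE of -0.37 ± 0.06 (edgeR adjusted p = 2.1e-04). MFSD11 was not called here, at -0.03 ± 0.06. SRSF6, which binds exonic enhancers, was at 213, 221 and 203 CPM in siNC.H2O2, against 262, 267 and 255 in siNC. HNRNPA0, a target of stress kinase signalling that steadies AU-rich messages, was at 181, 177 and 170.1 CPM in siNC.H2O2, against 206, 220.5 and 225 in siNC. Neither overlapped between the groups, and each fell by 0.30 on the log2 scale (edgeR adjusted p = 3.2e-04 for SRSF6 and 9.6e-04 for HNRNPA0). HNRNPH3 was at 346, 367 and 318 CPM in siNC.H2O2, against 266, 294 and 284 in siNC, a rise of 0.29 ± 0.06 (edgeR adjusted p = 0.0016). These 4 were called in all 20 alternative analyses.

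The other calls of this comparison were smaller and rested on fewer libraries. SRSF10, a repressor of splicing when it loses its phosphates under stress, fell by 0.18 (edgeR adjusted p = 0.028), and the call ended without siNC 1, siNC.H2O2 7 or siNC.H2O2 8 (adjusted p between 0.051 and 0.10) and without the first 2 together (0.25). SRSF4 fell by 0.18 (adjusted p = 0.026), a call that ended without siNC 2, siNC 3, siNC.H2O2 7 or siNC.H2O2 9 (0.057 to 0.11). SRSF3, which links splicing to mRNA export, was at 400.3, 338 and 332 CPM in siNC.H2O2, against 383, 411 and 418 in siNC. Its groups overlapped, and its call (log2 change -0.18, edgeR adjusted p = 0.049) ended without any 1 of 10 libraries, all but siNC 1 and siNC.H2O2 7 (0.056 to 0.18), whereas without both of these it fell by 0.31 (adjusted p = 3.3e-04). HNRNPA2B1 rose by 0.17 (adjusted p = 0.019), which ended without siNC 1, siNC 3 or siNC.H2O2 8 (0.065 to 0.080) and without siNC 1 and siNC.H2O2 7 together (0.080). HNRNPUL2 rose by 0.16 (adjusted p = 0.015), which ended without siNC 2 or siNC.H2O2 7 (0.051 and 0.060) and without siNC 1 and siNC.H2O2 7 together (0.069).

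**Figure D4:**
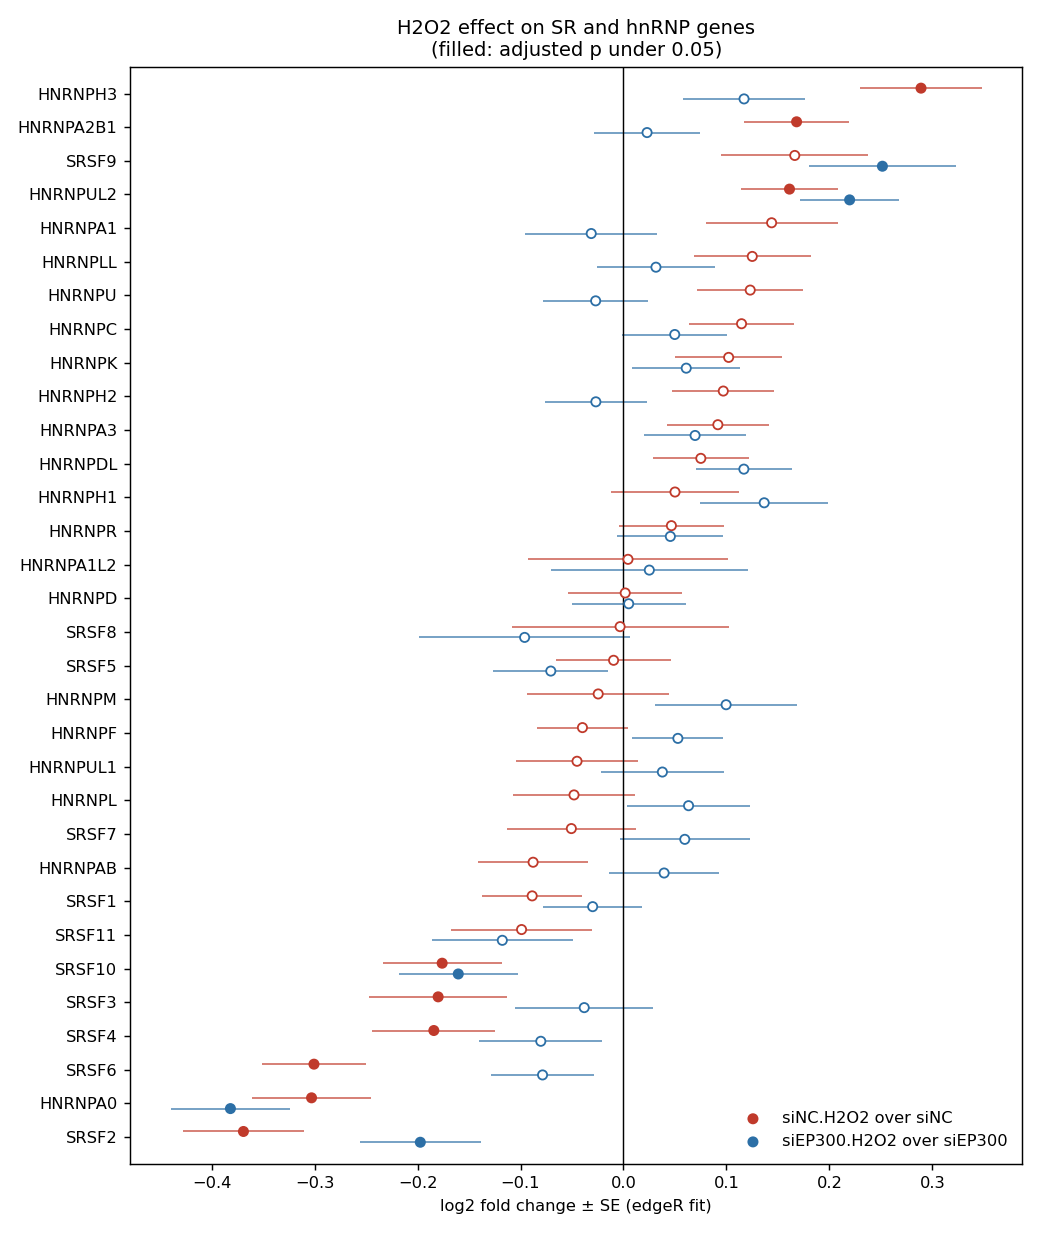
Log2 fold change ± SE of each SR and hnRNP gene with H2O2 (x axis, edgeR fit; 1 row per gene), under control siRNA in red and under EP300 siRNA in blue; filled points had an adjusted p under 0.05. Values lie between -0.38 and 0.29, with SRSF2, HNRNPA0 and SRSF6 lowest under control siRNA; SRSF12, at 0.42 and 1.33 and called in neither, and the untested HNRNPCL4 are not drawn.

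The fourth comparison asked what H2O2 changed under EP300 siRNA. Of the 33 genes, 2 were higher and 3 lower in siEP300.H2O2 than in siEP300, 5 in all, against 31.1% of all genes tested, 15.9% higher and 15.1% lower. HNRNPA0 fell again, to 178, 157 and 172 CPM in siEP300.H2O2, against 212, 226 and 222 in siEP300, with no overlap, the log2 change ± SE being -0.38 ± 0.06 (edgeR adjusted p = 1.9e-04). HNRNPUL2 rose to 200.0 ± 0.603 CPM in siEP300.H2O2, against 172 ± 3.42 in siEP300 (SD, n = 3), by 0.22 ± 0.05 (edgeR adjusted p = 0.0030). SRSF9, an enhancer-binding SR protein, rose by 0.25 ± 0.07 (adjusted p = 0.015), a call that ended without siEP300 6, siEP300.H2O2 11 or siEP300.H2O2 12 (0.065 to 0.073), while GATC was not called, at -0.03 ± 0.05. SRSF2 fell by 0.20 (adjusted p = 0.019), which ended without siEP300 5, siEP300 6, siEP300.H2O2 10 or siEP300.H2O2 11 (0.053 to 0.067). In the same comparison MFSD11, whose exons overlap those of SRSF2, fell by 0.34 (edgeR adjusted p = 9.7e-04), so these reads cannot be told apart by gene. SRSF10 fell by 0.16 (adjusted p = 0.047), which ended without any 1 of siNC 3, siEP300 4, 5 and 6, siNC.H2O2 8, siEP300.H2O2 11 and 12 (0.055 to 0.15). The count of calls was 2 without siEP300 6 or siEP300.H2O2 11, where 3157 of 13296 and 3019 of 13293 genes were called. It was 3 without siEP300 5 or siEP300.H2O2 12, where 3091 of 13282 and 3090 of 13298 genes were called. With all libraries 4095 of 13171 genes were called. Without siNC 1 and siNC.H2O2 7 the split was 4 higher and 3 lower (39.8% of all genes called). HNRNPDL (0.11, edgeR adjusted p = 0.042) and HNRNPH1 (0.13, adjusted p = 0.0497) were then added among the rises. HNRNPA0, HNRNPUL2, SRSF2 and SRSF10 were called in both H2O2 comparisons, in the same direction in each.

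**Figure D5:**
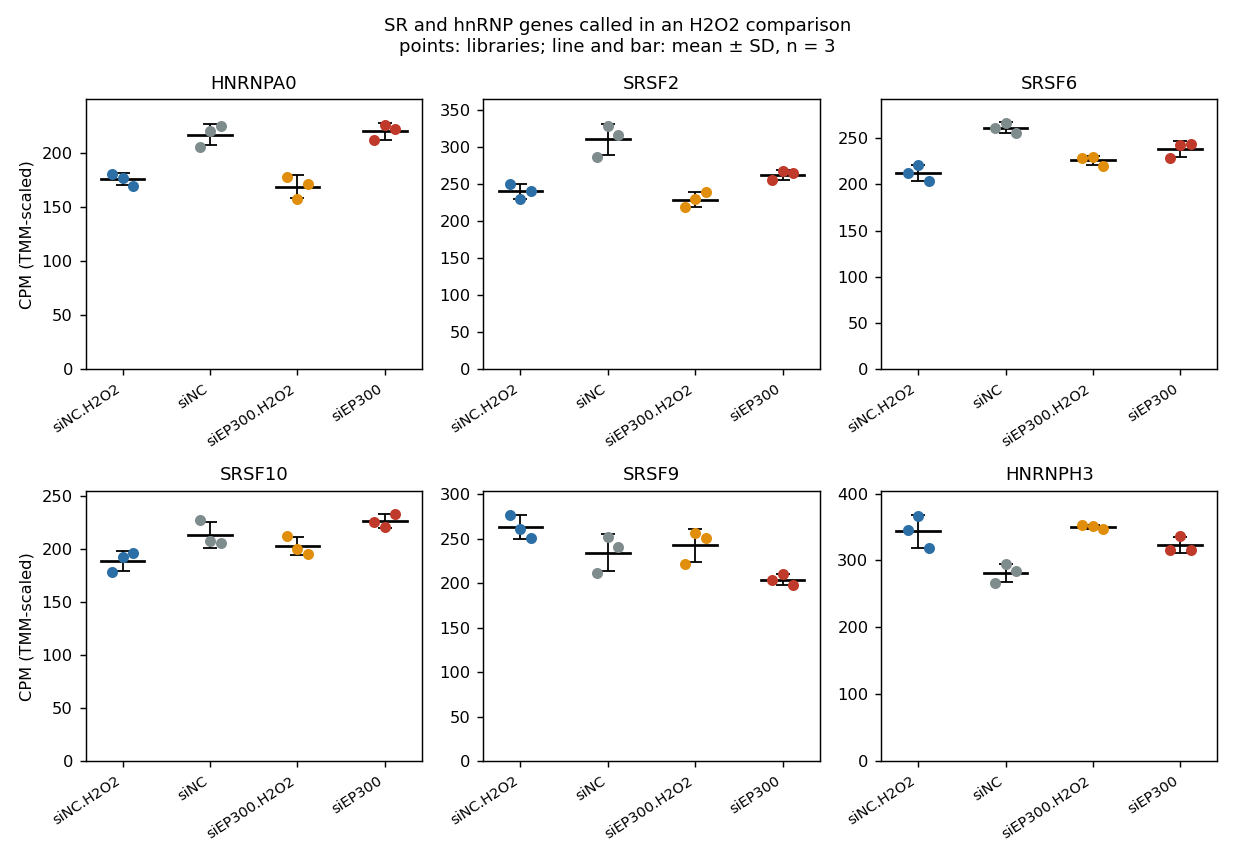
Level in CPM (y axis from 0) of 6 genes called in an H2O2 comparison; points are libraries, lines and bars the mean ± SD (n = 3), with each H2O2-treated group left of its untreated one. HNRNPA0 is lower in all 6 H2O2-treated libraries (157 to 181 CPM) than in all 6 untreated ones (206 to 226 CPM).

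Windows before the start site are shown in the same way for HNRNPA0 (chr5:137754364-137754613, minus strand) and SRSF6 (chr20:43457646-43457895, plus strand), which fell with H2O2 under control siRNA. The capitals again mark matches to the 6 motifs.
HNRNPA0: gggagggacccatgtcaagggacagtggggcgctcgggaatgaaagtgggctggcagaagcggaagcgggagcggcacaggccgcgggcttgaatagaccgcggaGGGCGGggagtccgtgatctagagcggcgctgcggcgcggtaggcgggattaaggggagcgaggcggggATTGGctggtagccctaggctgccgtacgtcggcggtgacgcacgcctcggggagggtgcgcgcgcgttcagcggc
SRSF6: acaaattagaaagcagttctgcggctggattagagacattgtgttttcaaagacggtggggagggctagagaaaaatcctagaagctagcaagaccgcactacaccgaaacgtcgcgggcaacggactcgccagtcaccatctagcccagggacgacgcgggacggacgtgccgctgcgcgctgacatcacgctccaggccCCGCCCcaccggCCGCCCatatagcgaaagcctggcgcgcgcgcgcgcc
HNRNPA0 has a GC box beginning 145 bases and a reversed CCAAT box 76 bases before its start, and SRSF6 has reversed GC boxes at 49 and 37 bases. Their GC contents are 70.4% and 61.6%, against a mean of 57.2% over all windows.

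The interaction asked whether the effect of EP300 siRNA differed with H2O2, as the change with H2O2 minus that without. The edgeR test called 0 of the 33 genes, against 3.33% of all genes tested, 1.12% higher and 2.21% lower, and 1 had an unadjusted p under 0.05, against 16.9% of all genes. That gene was SRSF6, with an interaction of 0.22 ± 0.07 (SE, unadjusted p = 0.0071, edgeR adjusted p = 0.11). It was called by DESeq2's Wald test (0.22, adjusted p = 0.038) and by limma on log2(FPKM + 1) (0.27, adjusted p = 0.045), and its adjusted p ran from 0.038 to 0.28 over the alternatives. SRSF6 was at 228, 229.6 and 220.0 CPM in siEP300.H2O2, against 213, 221 and 203 in siNC.H2O2, and at 228, 243 and 244 CPM in siEP300, against 262, 267 and 255 in siNC. Without siNC 1 and siNC.H2O2 7, SRSF2 (0.25), SRSF3 (0.26) and SRSF7 (0.22) had a called interaction and SRSF6 had none, 3 of 33 genes, against 15.1% of all genes in that fit. So in the edgeR fit of all 12 libraries, the calls made in only 1 of the siRNA or H2O2 comparisons were not shown to differ between them. For SRSF2, SRSF3 and SRSF7 this depended on siNC 1 and siNC.H2O2 7.

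Genes that work with SR proteins and hnRNPs were counted in the same comparisons. Of all genes tested, EP300 siRNA gave a call for 61.5% without H2O2 and 59.0% with it. H2O2 gave a call for 35.3% under control siRNA and 31.1% under EP300 siRNA. Among the kinases, phosphatases and import factors of SR proteins, 4 of 12 tested rose and 4 fell in siEP300 against siNC, and 3 rose and 6 fell in siEP300.H2O2 against siNC.H2O2 (median log2 changes -0.07 and -0.13, against -0.0042 and -0.019 over all genes). PPP1R8, a nuclear inhibitor of protein phosphatase, rose by 0.37 ± 0.06 and 0.56 ± 0.06, the importer TNPO1 by 0.48 ± 0.10 and 0.37 ± 0.10, and the SR protein kinase SRPK2 fell by 0.40 and 0.41 on the log2 scale (edgeR adjusted p of 0.0044 or lower). With H2O2 under control siRNA 3 rose and 1 fell (median 0.05, against -0.0081 over all genes), the kinases CLK3 (0.45 ± 0.06) and SRPK1 (0.30 ± 0.06) among the rises and CLK2 (-0.23 ± 0.06) the fall. Under EP300 siRNA 3 rose and 1 fell (median 0.07, against -0.00038 over all genes), again CLK3 and SRPK1 up and CLK2 down.

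Of 18 tested hnRNP proteins that go by other symbols, 3 rose and 10 fell in siEP300 against siNC, and 3 rose and 10 fell in siEP300.H2O2 against siNC.H2O2 (medians -0.18 and -0.16). The polypyrimidine-tract binder PTBP2 fell by 0.46 and 0.64 on the log2 scale, the mRNA stabiliser ELAVL1 by 0.32 and 0.35 and the poly-C binder PCBP3 by 0.54 and 1.41, while PTBP1 rose by 0.38 ± 0.05 in siEP300.H2O2 (edgeR adjusted p of 4.5e-04 or lower). H2O2 raised 3 and lowered 2 under control siRNA, and raised 1 and lowered 2 under EP300 siRNA, with PCBP2 lower in both (medians -0.0072 and 0.01). PCBP3 had the single called interaction among the 138 genes of the 6 splicing lists described here, at -0.87 ± 0.16 (edgeR adjusted p = 0.0093). Of all genes tested, 3.33% had one. Without siNC 1 and siNC.H2O2 7 the lists had 25 called interactions among 138 genes, against 15.1% of all genes in that fit. Of the 25, 11 were higher and 14 lower, with 5 higher and 2 lower in the core spliceosome and 0 higher and 6 lower among the other splicing regulators. Of 24 SR-related regulators, 8 rose and 3 fell in siEP300 and 7 rose and 2 fell in siEP300.H2O2 (medians 0.05 and 0.05), including RNPS1 of the exon junction complex (0.39 ± 0.06 and 0.55 ± 0.06). With H2O2, 2 rose and 5 fell under control siRNA, where the split was 7 and 3 without siNC 1 and siNC.H2O2 7, and 2 rose and 3 fell under EP300 siRNA, where it was 2 and 6 (medians 0.00039 and -0.01 over all libraries).

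Of 46 core spliceosome genes, 17 rose and 12 fell in siEP300 and 19 rose and 9 fell in siEP300.H2O2 (medians 0.02 and 0.11). PLRG1, of the catalytic spliceosome, rose by 0.94 ± 0.07 and 0.87 ± 0.07, and PHF5A, which helps recognise the branch point, by 0.88 ± 0.07 and 0.79 ± 0.07 (edgeR adjusted p of 2.7e-07 or lower), while U2AF2, which reads the polypyrimidine tract, fell by 0.38 without H2O2. H2O2 raised 9 and lowered 0 under control siRNA and raised 12 and lowered 0 under EP300 siRNA, where 19 rose and 0 fell without siNC 1 and siNC.H2O2 7, and under control siRNA 8 rose and 2 fell without them (medians 0.09 and 0.12 over all libraries). Of 19 other splicing regulators tested, 5 rose and 5 fell in siEP300 and 4 rose and 3 fell in siEP300.H2O2 (medians 0.07 and -0.06), and the muscleblind protein MBNL1 rose by 0.91 ± 0.09 and 0.82 ± 0.08 and CELF1, its usual opponent, by 0.65 ± 0.07 in each. H2O2 raised 4 and lowered 2 of them under control siRNA and raised 3 and lowered 2 under EP300 siRNA (medians 0.05 and 0.03). Without siNC 1 and siNC.H2O2 7 the other regulators had 7 rises and 7 falls in siEP300 and 4 rises and 6 falls in siEP300.H2O2, and H2O2 raised 6 and lowered 2 under control siRNA and raised 3 and lowered 4 under EP300 siRNA. Of 19 nonsense-mediated decay genes, 7 rose and 4 fell in siEP300 and 6 rose and 4 fell in siEP300.H2O2 (medians 0.08 and 0.10), with the exon junction factor CASC3 higher (0.40 ± 0.05 and 0.55 ± 0.05) and the kinase regulator SMG9 lower (-0.67 ± 0.07 and -0.43 ± 0.07). H2O2 raised 2 and lowered 1 under control siRNA and raised 3 and lowered 0 under EP300 siRNA (medians 0.03 and 0.02). The shares of these lists called with EP300 siRNA ran from 36.8% to 75.0%, against 61.5% and 59.0% of all genes, and with H2O2 from 15.8% to 33.3%, against 35.3% and 31.1%. Without siNC 1 and siNC.H2O2 7, the shares of all genes called were 65.1% and 59.6% with EP300 siRNA and 36.9% and 39.8% with H2O2.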

How the data were processed

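The authors deposited 1 table of estimated counts and 1 of FPKM for 17197 gene symbols. Alignment tools named for the build GRCh38.p13, per the submitters' processing notes, are HISAT and Bowtie2; how reads were counted, with which annotation and strand setting, is not given in the sources used here. In each library, 12.0% to 13.8% of the 17197 symbols had a non-whole value, and these values were rounded for the tests on counts. Groups follow the sample titles. Library totals were 16081437 to 19033679 estimated counts, and TMM factors 0.969 to 1.05.

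The test was that of edgeR 4.0.16, run in R 4.3.3 (filterByExpr, TMM, glmQLFit, glmQLFTest, two-sided), with 1 mean per group over all 12 libraries and Benjamini-Hochberg adjustment over 13171 genes; the common biological coefficient of variation was 6.72%. Log2 fold changes carry the SE of this fit. Alternatives were DESeq2 1.42.0 size factors and Wald test, upper quartile scaling, no filter on low counts, limma 3.58.1 on log2(FPKM + 1) and log2(FPKM + 0.1), fits of only the groups compared, each library left out, and siNC 1 with siNC.H2O2 7 left out. The last was applied to the gene lists after seeing the data. The edgeR fit was tested on simulated data.

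Every member that passed the filter is named, with up to 4 genes of each list by the smallest adjusted p. The members and lists were chosen with earlier results of these data known. Gene positions and exon overlaps come from GENCODE 29 (GRCh38), and start-site windows from RefSeq (GRCh38.p14). A head-to-head partner is a protein-coding gene on the other strand starting within 1000 bases.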

Additional observations from a re-analysis of the deposited data

How the results depend on the processing

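Over 20 alternatives and 165 results for single genes (33 genes in 5 comparisons), 3107 values kept their side of the threshold, 93 lost a call and 66 gained one. No called value changed sign, and 140 values of genes called on neither side did. The number of SR and hnRNP genes called ran, with single libraries left out, from 12 to 18 for EP300 siRNA without H2O2 (16 in the edgeR fit), from 9 to 12 with H2O2 (10), from 6 to 8 for H2O2 under control siRNA (9), from 2 to 6 under EP300 siRNA (5) and stayed at 0 for the interaction. Over the same fits 7260 to 8430 of all genes were called for EP300 siRNA without H2O2, and 7075 to 8083 with H2O2. For H2O2 the range was 3598 to 4679 under control siRNA and 3019 to 4533 under EP300 siRNA, and for the interaction 196 to 709. Between 13264 and 13298 genes were tested in these fits. Fitting only the groups compared gave 4 calls for H2O2 under control siRNA, where 3448 of 12975 genes were called. The interaction had 1 call with DESeq2's Wald test, where 617 of 12148 genes were called. It had 1 with FPKM and pseudocount 1 (554 of 13171 genes), and 3 without both siNC 1 and siNC.H2O2 7 (1996 of 13247). Upper quartile scaling moved the median log2 change of all genes by no more than 0.1. Why these counts moved was not tested. No paired analysis was possible because the libraries are numbered 1 to 12 and no number is shared between groups. Most calls that a single library ended had a log2 change of about 0.2 or less, which with 3 libraries a group was near 3 times its SE or below. SRSF12 rests on 0 to 25 counts per library.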
